A study of Mus musculus with 12 samples.

Results

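Ccl2, Ccl7, Ccl11, Ccl12 and Ccl8 are 5 neighbouring mouse genes that encode secreted chemokines drawing monocytes and eosinophils into tissue. They were taken by gene symbol from the deposited tables, which list 17952 genes in all, and all 5 are listed there. Reads of Ccl11 were counted in 6 of the 12 libraries, and reads of the other chemokines in all 12. The libraries hold bulk RNA of sorted cells from the hearts of p16-2A-CreER;R26-mTmG mice after a myocardial infarction (MI). In these mice a tamoxifen-dependent Cre is made from the p16 locus, and R26-mTmG turns a cell green once that Cre has acted. All mice had MI and tamoxifen by gavage on day 5, and the infarct zone was harvested on day 7, without cardiomyocytes. The 4 groups of 3 libraries were P16hiPDGFRahi and P16loPDGFRahi cells, and P16hiF480hi and P16loF480hi cells, where P16hi and P16lo stand for high and low green fluorescence. PDGFRα is a fibroblast surface receptor and F4/80, written F480 here, is a macrophage surface protein. The labels state neither ages and sexes nor whether each library is a different mouse. The p-values therefore set group differences only against the spread among these libraries, which may be technical. All libraries come from infarcted, tamoxifen-treated hearts, and green fluorescence reports p16 activity around the dose, not at harvest. The series title asks about Ccl8 made by P16-positive cells.

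Chemokines of this family bind G protein-coupled receptors on leukocytes and guide them out of blood and bone marrow towards the tissue that secretes them. Ccl2, Ccl7 and Ccl12 are ligands of Ccr2, the receptor that brings inflammatory monocytes into the infarcted heart. Ccl11, known as eotaxin, acts through Ccr3 on eosinophils. Mouse Ccl8 is known as an agonist of Ccr8, a receptor of a subset of T cells. Macrophages and fibroblasts both make such ligands when stimulated by inflammatory cytokines.

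In the GRCm38.p6 annotation the 5 genes lie on the plus strand of chromosome 11 within 81.2 kb. Ccl2 (gene 20296) spans 82035577 to 82037452, Ccl7 (gene 20306) spans 82045712 to 82047525 and Ccl11 (gene 20292) spans 82057832 to 82062955. A gap of 38.9 kb separates Ccl11 from Ccl12 (gene 20293, 82101845 to 82103399), and Ccl8 (gene 20307, 82115185 to 82116799) starts 11.8 kb after Ccl12 ends. In the edgeR fits below, the pair at the far end, Ccl12 and Ccl8, had the largest estimates with P16hi cells higher. A promoter sequence (GRCm38.p6) was available for these 2 of the 5 genes, and both are shown. The lines below give the 250 bases before each start, on the plus strand, for Ccl12 at chr11:82101595-82101844 and for Ccl8 at chr11:82114935-82115184, with matches to TATAAAA in capitals.
Ccl12: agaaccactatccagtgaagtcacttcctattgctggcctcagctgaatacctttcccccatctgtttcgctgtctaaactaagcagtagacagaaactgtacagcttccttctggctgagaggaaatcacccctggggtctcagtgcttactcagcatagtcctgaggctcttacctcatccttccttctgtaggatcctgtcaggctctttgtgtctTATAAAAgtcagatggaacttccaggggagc
Ccl8: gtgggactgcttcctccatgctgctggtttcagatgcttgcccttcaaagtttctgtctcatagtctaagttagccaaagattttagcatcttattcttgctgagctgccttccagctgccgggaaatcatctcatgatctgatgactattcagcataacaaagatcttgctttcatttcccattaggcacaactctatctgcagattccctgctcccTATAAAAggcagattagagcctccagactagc

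Both stretches hold TATAAAA on the strand of the gene, 31 to 25 bases before the start of Ccl12 and 32 to 26 bases before that of Ccl8. These letters, searched on both strands, occur in 4.98% of 32851 promoter stretches of that length, and were added to the search after the sequences had been read. Aligned to each other, the stretches were identical in 150 of 270 columns (55.6%). None of 5 other motifs was found in either on any strand. These were an NF-kB-like motif (GGG, any 5 bases, CC), which 45.8% of promoters hold, TGANTCA (AP-1, 6.75%), TTCNNNGAA (STAT, 7.02%), an interferon response motif (GAAA, any 2 bases, GAAA; 2.98%) and TTGCNNAA (C/EBP-like, 9.56%). A missing match says only that these letters are absent from this window.

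**Figure D1:**
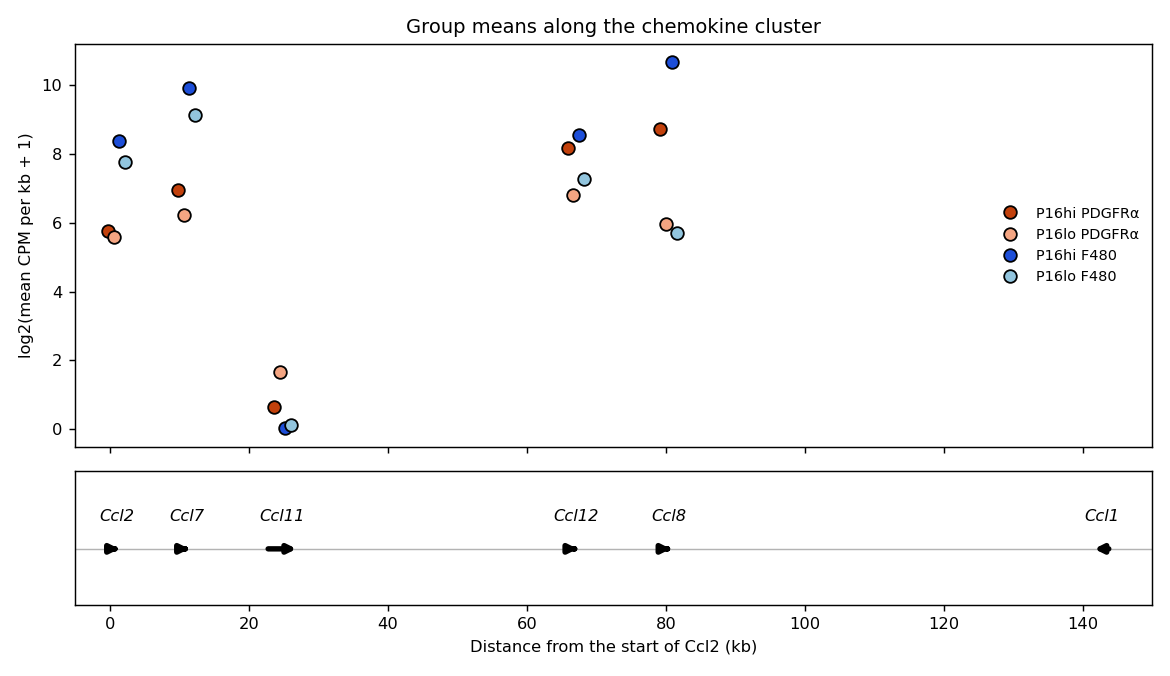
Upper panel, mean level of each gene in each group as log2 of 1 plus the CPM (counts per 1000000) per kilobase of exon, with points moved sideways so that groups do not cover each other; lower panel, gene positions as distance from the start of Ccl2 in kb, arrows showing the strand. Ccl8 has the widest gap between the P16hi and P16lo means in both sorted populations, and Ccl11 lies near 0 in all 4 groups.

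Total counts ran from 3.16 to 27.9 M per library (M, 1000000 counts), lowest in P16hi PDGFRα library 1. Cdkn2a, the p16 gene, was at 0.59 to 1.75 CPM in the P16hi and 0.099 to 0.314 CPM in the P16lo PDGFRα libraries, and at 0.577 to 1.08 CPM in the P16hi and 0.122 to 0.204 CPM in the P16lo F480 libraries (CPM, counts per 1000000 of the library size scaled by TMM, edgeR's trimmed mean of M-values). These values did not overlap in either population but rest on 2 to 26 counts. Pdgfra, the gene of the sorted receptor, was at 19.3, 8.23 and 44.4 CPM in P16hi and 4.46, 6.48 and 158 CPM in P16lo PDGFRα libraries 1 to 3, against 0.487 to 3.63 CPM in the F480 libraries. Adgre1, which encodes F4/80, was at 243, 211 and 129 CPM in P16hi and 740, 49.8 and 27.5 CPM in P16lo PDGFRα libraries 1 to 3, and at 1873, 240 and 350 CPM in P16hi and 1202, 1696 and 35.6 CPM in P16lo F480 libraries 1 to 3. Thus Pdgfra separated the populations without overlap, and Adgre1 did not. The PDGFRα libraries held macrophage RNA too: 10 macrophage markers summed to 5347 to 15897 CPM in the P16hi and 1640 to 25585 CPM in the P16lo libraries, above the sum of 10 fibroblast markers in 4 of the 6 libraries. In the library labelled P16lo PDGFRα 1 the macrophage sum was 25585 CPM and the fibroblast sum 703 CPM, so its marker RNA goes against a fibroblast label, and "PDGFRα-high" names the sort here, not a cell type. The library labelled P16lo F480 3 had a macrophage sum of 2505 CPM, against 13590 to 51185 CPM in the other F480 libraries, and its B cell markers summed to 6644 CPM, so its marker RNA goes against a macrophage label. P16hi F480 library 3 had endothelial markers at 9645 CPM, against 41.1 to 160 CPM in the other F480 libraries. P16hi F480 library 2 had monocyte markers at 5182 CPM, the highest of the F480 libraries, and B cell markers at 1515 CPM. Of the counts of P16lo PDGFRα libraries 2 and 3, 18.7% and 44.8% fell on hemoglobin genes. In bulk RNA, fewer cells of a type and less RNA per cell cannot be told apart.

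Among PDGFRα-high cells Ccl8 was higher in every P16hi library than in any P16lo library. It stood at 409, 117 and 123 CPM in P16hi libraries 1 to 3, and at 79.5, 3.37 and 11.9 CPM in P16lo libraries 1 to 3. The groups did not overlap, P16hi library 1 and P16lo library 1 being the high ones of each. Behind these CPM stood 1402, 728 and 1665 reads in the P16hi libraries and 1605, 52 and 114 reads in the P16lo libraries. The means were 216 ± 167 CPM in P16hi and 31.6 ± 41.7 CPM in P16lo cells (SD, n = 3 each). The difference was 2.78 ± 1.14 on the log2 scale (SE) by edgeR's quasi-likelihood test, with an unadjusted p of 0.0434 and a Benjamini-Hochberg adjusted p of 0.746 over 13262 genes, and did not pass the threshold of 0.05. The exact two-sided permutation test gave p = 0.1, the smallest that 3 against 3 libraries allow. Of all genes tested in this comparison 0.0% were called by edgeR, and in 7.82% every P16hi library lay above every P16lo library. The log2 difference was 1.91 (adjusted p = 0.958, edgeR) without P16hi library 1 and 4.83 (adjusted p = 0.208, edgeR) without P16lo library 1.

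In F480-high cells Ccl8 had its highest and nearly its lowest level within the same P16hi group. P16hi libraries 1 to 3 held 2079, 1.82 and 418 CPM, and P16lo libraries 1 to 3 held 45.2, 32.5 and 0.975 CPM. The groups overlapped through P16hi library 2, whose level was under that of P16lo libraries 1 and 2, while the other P16hi libraries stood above all P16lo libraries. Mean levels were 833 ± 1099 CPM in P16hi and 26.2 ± 22.8 CPM in P16lo cells (SD, n = 3 each). edgeR gave a log2 difference of 5.04 ± 2.26 (SE) with an unadjusted p of 0.0642 and an adjusted p of 0.999, and called 0.0% of 12490 genes. Every P16hi library lay above every P16lo library in 2.95% of genes and in none of the 4 chemokines tested here. The exact two-sided permutation test, on a difference of mean log2(CPM + 1) of 3.22, gave p = 0.4. Without the library labelled P16lo F480 3 the log2 difference was 4.47, without P16hi library 2 it was 5.62, without P16hi library 1 it was 3.11, and with both number 3 libraries left out it was 4.77; none passed edgeR's threshold.

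The F480 table lists its libraries in separate column blocks, whose meaning the labels do not give: P16hi libraries 2 and 3 and P16lo library 3 in block 1, and P16hi library 1 and P16lo libraries 1 and 2 in block 2. Within each block every P16hi library was above every P16lo library for Ccl8, Ccl12, Ccl7 and Ccl2. Block 1 has a single P16lo library, the one labelled P16lo F480 3, whose marker RNA goes against its label, so the order in block 1 and the estimates with the block in the model lean on it. For Ccl8 the levels were 1.82 and 418 CPM in P16hi against 0.975 CPM in P16lo libraries of block 1, and 2079 CPM in P16hi against 45.2 and 32.5 CPM in P16lo libraries of block 2. This ordering held for all 4 chemokines tested in F480-high cells, and for 16.1% of all genes. With the block as a covariate in edgeR the log2 difference was 6.77 ± 2.1 for Ccl8, 3.07 ± 1.45 for Ccl12, 2.63 ± 0.674 for Ccl7 and 2.46 ± 0.895 for Ccl2 (SE), with adjusted p from 0.717 to 0.736. Unadjusted p was 0.0206 for Ccl8, 0.00964 for Ccl7, 0.0371 for Ccl2 and 0.0841 for Ccl12 by edgeR, in a fit where 4.09% of genes had an unadjusted p under 0.05 with P16hi higher. Block 1 of the PDGFRα table held P16hi library 1 alone, so no comparison was possible there. In its block 2, Ccl8 at 117 and 123 CPM in P16hi libraries was above the 79.5, 3.37 and 11.9 CPM of the P16lo libraries. That order follows from the lack of overlap over the whole PDGFRα table and is no further result.

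Averaged over both populations in an edgeR fit of all 12 libraries, the log2 difference of Ccl8 was 3.88 ± 1.34 (SE), with an unadjusted p of 0.0142 and an adjusted p of 0.441. In that fit 6.17% of 14073 genes had an unadjusted p under 0.05 with P16hi higher, and 0.0% were called. Within both populations together the difference of mean log2(CPM + 1) was 3.34. Its exact two-sided permutation test gave p = 0.075, with 0.005 the smallest p possible. DESeq2 called Ccl8 in this comparison, with a log2 difference of 3.97 and an adjusted p of 0.0142, and called 2.36% of genes as higher in P16hi cells. It gave no p for Ccl8 and Ccl12 in PDGFRα-high cells alone and an adjusted p of 0.522 for Ccl8 in F480-high cells. The P16hi difference of Ccl8 in PDGFRα-high cells minus that in F480-high cells was -2.22 ± 2.41 (SE, adjusted p = 1.0, edgeR, which called 0.0% of genes), so a difference between the populations was not detected.

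Ccl12, a Ccr2 ligand known from the mouse, was even across P16hi PDGFRα libraries and uneven across P16lo ones. It had 152, 173 and 140 CPM in P16hi libraries 1 to 3, and 156, 19.8 and 3.77 CPM in P16lo libraries 1 to 3. P16lo library 1 lay within the P16hi range and P16lo libraries 2 and 3 lay far under it. Means were 155 ± 17.0 CPM in P16hi and 59.7 ± 83.5 CPM in P16lo cells (SD, n = 3 each). The difference of mean log2(CPM + 1) was 2.64 (exact permutation p = 0.3). By edgeR the log2 difference was 1.38 ± 1.1 (SE, adjusted p = 0.878). Without P16lo library 1 the difference was 3.71 (adjusted p = 0.212, edgeR). In F480-high cells Ccl12 had 363, 15.2 and 233 CPM in P16hi libraries 1 to 3, and 138, 105 and 5.73 CPM in P16lo libraries 1 to 3. The pattern was that of Ccl8, with P16hi library 2 and the library labelled P16lo F480 3 low, and the groups overlapped. The log2 difference was 1.36 ± 1.33 (SE, adjusted p = 0.999, edgeR; exact permutation p = 0.5), and over both populations it was 1.33 ± 0.942 (SE, adjusted p = 0.772, edgeR; exact permutation p = 0.125).

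Ccl7, a ligand of Ccr2 that also binds Ccr1 and Ccr3, differed less. In PDGFRα-high cells it had 125, 83.4 and 83.4 CPM in P16hi libraries 1 to 3, and 82.2, 60.1 and 36.0 CPM in P16lo libraries 1 to 3. The groups did not overlap, by a margin of about 1 CPM between P16hi libraries 2 and 3 and P16lo library 1. The log2 difference was 0.72 ± 0.389 (SE, adjusted p = 0.836, edgeR; exact permutation p = 0.1). In F480-high cells Ccl7 was at 1853, 194 and 306 CPM in P16hi libraries 1 to 3 and at 715, 624 and 19.4 CPM in P16lo libraries 1 to 3. P16hi library 1 was the highest and the library labelled P16lo F480 3 the lowest, with overlap between. The log2 difference there was 0.83 ± 1.32 (SE, adjusted p = 0.999, edgeR; exact permutation p = 0.7), and without P16hi library 1 it turned to -0.79. Over both populations it was 0.75 ± 0.737 (SE, adjusted p = 0.824, edgeR; exact permutation p = 0.375), and -0.07 without that library.

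Ccl2, the best known Ccr2 ligand of inflamed tissue, had the smallest P16hi estimates of the 4 Ccr2 and Ccr8 ligands by edgeR. It had 70.3, 65.2 and 46.1 CPM in P16hi libraries 1 to 3, and 51.9, 71.7 and 37.6 CPM in P16lo libraries 1 to 3. The groups overlapped almost fully, and the log2 difference of 0.18 ± 0.349 (SE, adjusted p = 0.92, edgeR; exact permutation p = 0.7) was -0.04 without P16lo library 3. F480-high cells had Ccl2 at 660, 203 and 282 CPM in P16hi libraries 1 to 3, and 385, 340 and 15.6 CPM in P16lo libraries 1 to 3. Again P16hi library 1 was highest and the library labelled P16lo F480 3 lowest. There the difference of mean log2(CPM + 1) was 1.37 (exact permutation p = 0.6), above 1.2 for Ccl7 and 1.26 for Ccl12. Over both populations it was 0.78 (exact permutation p = 0.445). By edgeR the log2 difference was 0.68 ± 1.05 (SE, adjusted p = 0.999) in F480-high cells. Over both populations edgeR gave 0.40 ± 0.587 (SE, adjusted p = 0.883). Without P16hi F480 library 1 these edgeR values were 0.03 and 0.07.

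Ccl11, the eotaxin, was close to undetected. Its reads numbered 0, 0 and 24 in P16hi and 0, 28 and 49 in P16lo PDGFRα libraries 1 to 3, or 1.77 CPM in P16hi library 3 and 1.81 and 5.14 CPM in P16lo libraries 2 and 3. Counts of 0 allow up to 0.875 and 0.484 CPM in P16hi libraries 1 and 2 and up to 0.149 CPM in P16lo library 1, for counting error only. The groups overlapped, and the difference of mean log2(CPM + 1) was -0.88 (exact permutation p = 0.4). By edgeR the log2 difference of -1.78 ± 2.03 (SE, adjusted p = 0.885) did not pass. It was -7.67 without P16hi library 3, which held all P16hi reads, a fitted value that depends on the prior count and is no bound, and -0.46 without P16lo library 3. In F480-high cells 1, 0 and 0 reads were counted in P16hi and 5, 1 and 0 in P16lo libraries 1 to 3, and the gene was left out of that test for low counts.

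**Figure D2:**
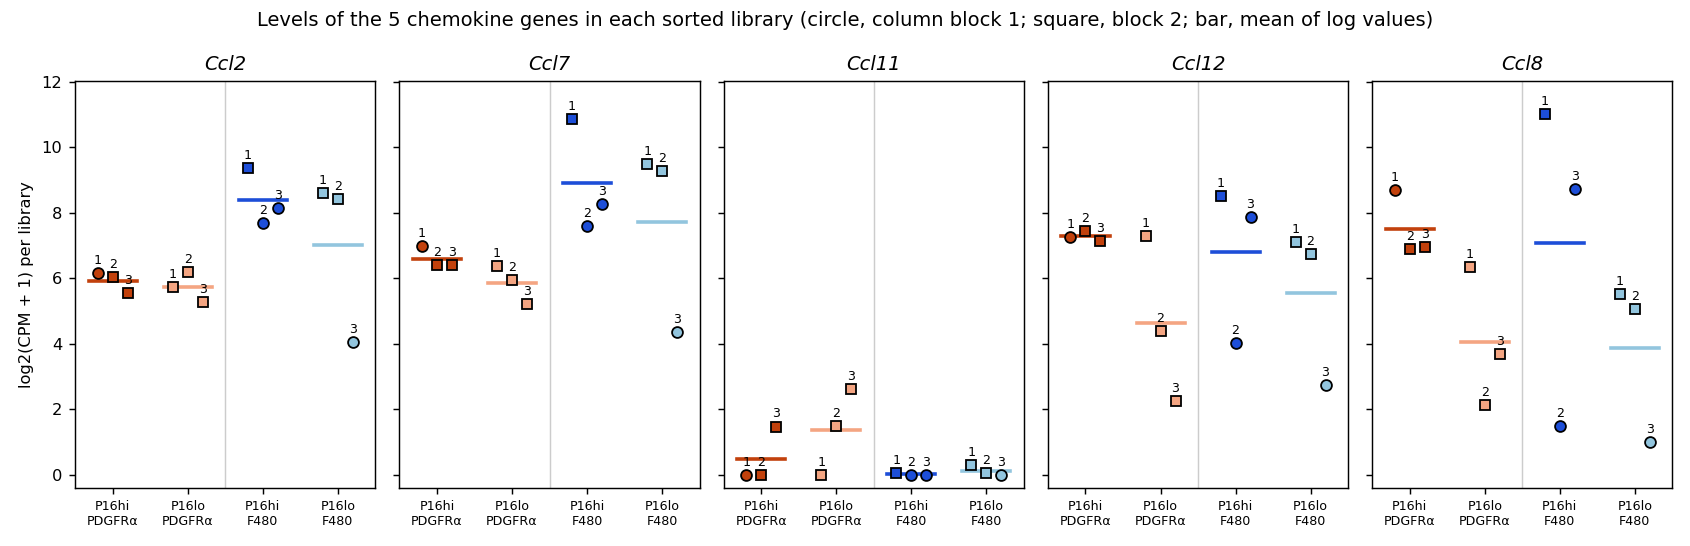
Level of each chemokine in each of the 12 libraries as log2(CPM + 1), with the library number above its point, circles for column block 1, squares for column block 2 and a bar at the mean of the log values of each group. For Ccl8 the P16hi PDGFRα libraries (117 to 409 CPM) lie above the P16lo ones (3.37 to 79.5 CPM), while P16hi F480 library 2 (1.82 CPM) lies under P16lo F480 libraries 1 and 2.

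Within single populations, edgeR called none of the 5 chemokines in PDGFRα-high cells and none of the 4 tested in F480-high cells. At an unadjusted p under 0.05 it held Ccl8 alone in PDGFRα-high cells, where 4.8% of genes were as low with P16hi higher, and none in F480-high cells (1.94%). DESeq2 called none of the chemokines for which it gave a p within either population, beside 2.21% of genes called higher in P16hi PDGFRα-high cells. The log2 differences were above 0 for 4 of 5 chemokines in PDGFRα-high cells, with a median of 0.72 against -0.17 over all genes. In F480-high cells they were above 0 for 4 of 4, where the median over all genes was 0. Of all genes, 59.6% lay below 0 in PDGFRα-high and 50% in F480-high cells. The chemokines were chosen with earlier results of these data known, so these counts carry no test. Scaling by library totals alone moved the all-gene median in PDGFRα-high cells to 0.24, and the Ccl8 difference to 2.95.

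**Figure D3:**
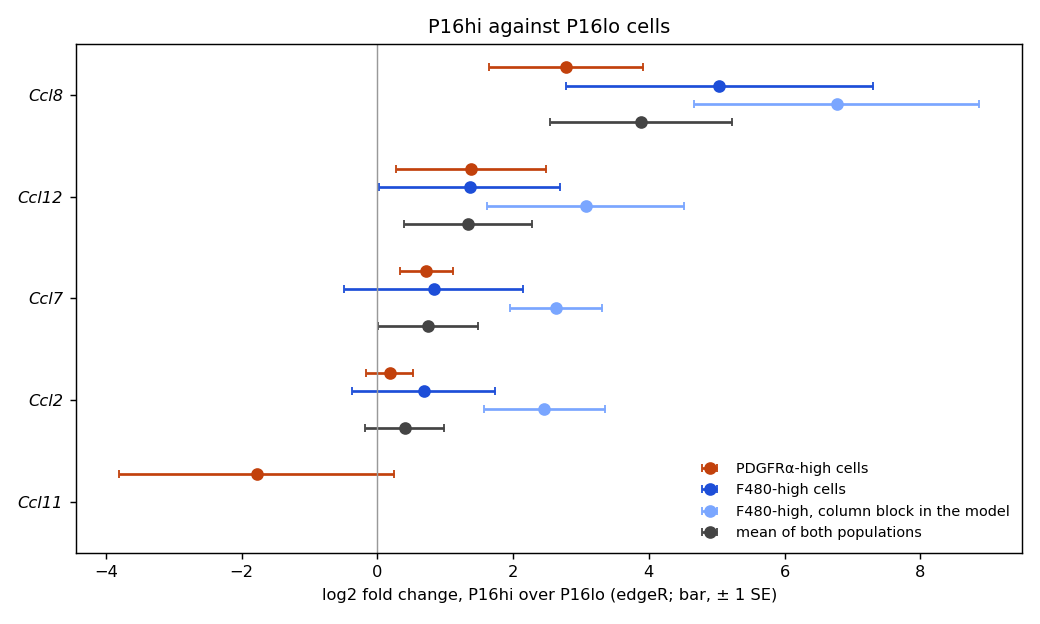
Log2 difference of P16hi over P16lo cells for each chemokine by edgeR in the PDGFRα-high population, the F480-high population, F480-high cells again with the column block in the model, and averaged over both populations; bars show 1 standard error to each side. Ccl8 has the largest of the estimates in each of the 4 comparisons, and the Ccl11 estimate is shown for PDGFRα-high cells only.

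The makeup of the ligand mixture was compared as CPM per kilobase of exon, which sets genes of unlike length on 1 scale. Ccl8 made up 61.5%, 32.2% and 37.1% of the 5-gene sum in P16hi PDGFRα libraries 1 to 3, and 26.2%, 3.6% and 20.7% in P16lo PDGFRα libraries 1 to 3. Its shares did not overlap between these groups, and how many other genes would not overlap on this scale was not computed. In F480 libraries 1 to 3 the Ccl8 share was 53.3%, 0.787% and 43.5% in P16hi and 5.61%, 4.75% and 3.78% in P16lo cells. The P16lo F480 libraries were alike in this share although their 5-gene sums differed widely, at 1577, 1336 and 50.5 CPM per kb. Ccl7 was the leading ligand of all P16lo F480 libraries, with shares of 56.6%, 58.3% and 47.9%, of P16hi F480 library 2, with 53.5%, and of P16lo PDGFRα libraries 2 and 3, with 41.0% and 39.7%. The 5-gene sum was 1301, 714 and 647 CPM per kb in P16hi and 594, 183 and 113 CPM per kb in P16lo PDGFRα libraries 1 to 3. Ccl8 led in P16hi F480 libraries 1 and 3 and in P16hi PDGFRα library 1, and Ccl12 led in P16hi PDGFRα libraries 2 and 3 and in P16lo PDGFRα library 1.

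Ratios within a library, which no scaling between libraries affects, were also taken, with Ccl2 as the divisor. Per Ccl2 read there were 5.82, 1.8 and 2.66 Ccl8 reads in P16hi and 1.53, 0.047 and 0.318 in P16lo PDGFRα libraries 1 to 3. Per Ccl2 read there were 3.15, 0.00896 and 1.48 Ccl8 reads in P16hi and 0.117, 0.0956 and 0.0623 in P16lo F480 libraries 1 to 3. P16hi ratios lay above all P16lo ratios in PDGFRα libraries, and in F480 libraries all but that of P16hi library 2 did. These ratios reuse the Ccl8 reads and are no separate evidence. The share of all genes whose ratio to Ccl2 does not overlap was not computed. The ratio of Ccl7 to Ccl2 reads moved far less, between 0.955 and 2.81 in P16hi and between 0.839 and 1.86 in P16lo libraries over both populations.

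**Figure D4:**
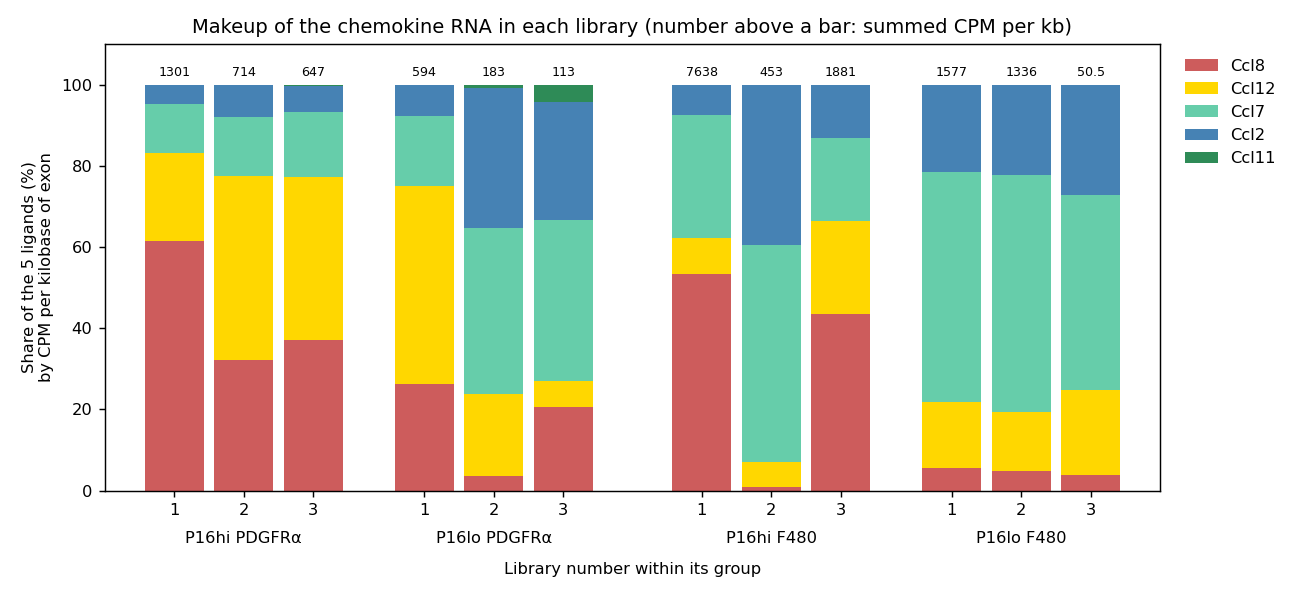
Share of each chemokine in the summed CPM per kilobase of exon of the 5 genes, 1 bar per library, with the sum printed above the bar. Ccl8 takes 32.2% to 61.5% in the P16hi PDGFRα libraries and 3.78% to 5.61% in the P16lo F480 libraries, and P16hi F480 library 2 (0.787%) looks unlike the other P16hi libraries.

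By group means, Ccl2 and Ccl7 were ordered P16hi F480, P16lo F480, P16hi PDGFRα and P16lo PDGFRα from high to low. Neighbours in that order overlapped in their libraries, except P16hi and P16lo PDGFRα for Ccl7. Ccl8 and Ccl12 were ordered otherwise, with both P16hi groups above both P16lo groups and P16hi F480 libraries at the top. For Ccl8 the means were 216 CPM in P16hi PDGFRα and 833 CPM in P16hi F480 libraries, and 31.6 CPM in P16lo PDGFRα and 26.2 CPM in P16lo F480 libraries. For Ccl12 they were 155 CPM in P16hi PDGFRα and 204 CPM in P16hi F480 libraries, and 59.7 CPM in P16lo PDGFRα and 83.0 CPM in P16lo F480 libraries. In both orders the step from P16hi PDGFRα to the next P16lo group was free of overlap, and the other steps were not. Ccl11 averaged 0.59 CPM in P16hi and 2.32 CPM in P16lo PDGFRα libraries, and 0.0148 CPM in P16hi and 0.0884 CPM in P16lo F480 libraries, with overlap at each step.

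PDGFRα-high cells were then set against F480-high cells, which come from separate deposited tables, so that population and table cannot be told apart. Among P16hi cells, Ccl2 at 46.1 to 70.3 CPM in PDGFRα libraries lay wholly under its 203 to 660 CPM in F480 libraries, a log2 difference of -2.66 ± 0.881 (SE, unadjusted p = 0.0116, adjusted p = 0.21, edgeR). Ccl7 at 83.4 to 125 CPM in P16hi PDGFRα libraries likewise lay under its 194 to 1853 CPM in P16hi F480 libraries, with -3.01 ± 1.12 (SE, unadjusted p = 0.0207, adjusted p = 0.238, edgeR). No overlap with PDGFRα lower was seen in 10.8% of genes, 8.1% had an unadjusted p under 0.05 in that direction, and edgeR called 0.0%. DESeq2 called both, at -2.64 for Ccl2 and -2.99 for Ccl7, beside 3.27% of genes called lower. With both number 3 F480 libraries left out, a choice made after seeing the data, edgeR called them too. It gave -3.01 (adjusted p = 0.0122, edgeR) for Ccl2 and -3.59 (adjusted p = 0.0274, edgeR) for Ccl7, beside 592 of 14492 genes called lower. For Ccl12 and Ccl8 the P16hi values of the populations overlapped, with log2 differences of -0.39 (adjusted p = 0.908, edgeR) and -1.95 ± 1.74 (SE, adjusted p = 0.603, edgeR). Without P16hi F480 library 1 the Ccl8 difference was 0.04, that of Ccl12 turned to 0.32 and that of Ccl7 was -1.36.

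Among P16lo cells the libraries of the populations overlapped for every member. The log2 differences of PDGFRα-high over F480-high cells were -2.2 ± 0.864 for Ccl2 and -2.93 ± 1.11 for Ccl7 (SE, adjusted p = 0.25 and 0.239, edgeR, which called 0.0% of genes). Their unadjusted p were 0.0271 and 0.0232 by edgeR, and 5.1% of genes had one under 0.05 in that direction. DESeq2 called Ccl7 at -2.97, beside 2.63% of genes called lower, and did not call Ccl2. With both number 3 F480 libraries left out, again a choice made after seeing the data, edgeR called Ccl2 at -2.94 (adjusted p = 0.033). In that fit 142 of 14492 genes were called lower. For Ccl12 and Ccl8 the differences were -0.47 (adjusted p = 0.899, edgeR) and 0.27 ± 1.69 (SE, adjusted p = 0.96, edgeR), and Ccl8 was at -1.78 without P16lo PDGFRα library 1. No fold is given for Ccl11 between the populations, with 1 read in all P16hi F480 libraries together and 5, 1 and 0 reads in P16lo F480 libraries 1 to 3.

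Of the 10 macrophage markers, 5 had a log2 difference of P16hi over P16lo above 0 and 5 below in each population, with medians of -0.03 in PDGFRα-high and 0.05 in F480-high cells, and none was called by edgeR. Their sum was 15897, 11795 and 5347 CPM in P16hi and 25585, 5915 and 1640 CPM in P16lo PDGFRα libraries 1 to 3, and 51185, 24839 and 13590 CPM in P16hi and 30761, 28233 and 2505 CPM in P16lo F480 libraries 1 to 3, with none of the 10 markers at 0 in any library. Set per 1000 CPM of that sum, Ccl8 was 25.7, 9.96 and 23.0 in P16hi and 3.11, 0.57 and 7.29 in P16lo PDGFRα libraries 1 to 3. These did not overlap either, nor did those of Ccl12, at 9.54, 14.7 and 26.1 in P16hi and 6.08, 3.34 and 2.3 in P16lo PDGFRα libraries. Before scaling Ccl12 did overlap, through the 156 CPM of P16lo library 1, whose sum of 25585 CPM is the largest divisor among PDGFRα libraries. For Ccl2 the order was another, with 4.42, 5.53 and 8.63 in P16hi and 2.03, 12.1 and 22.9 in P16lo PDGFRα libraries. In F480 libraries Ccl8 per 1000 CPM of macrophage markers was 40.6, 0.0734 and 30.7 in P16hi and 1.47, 1.15 and 0.389 in P16lo libraries 1 to 3, and Ccl2 was 12.9, 8.19 and 20.7 in P16hi and between 6.24 and 12.5 in P16lo libraries. P16hi F480 library 2 was thus low in Ccl8 for its macrophage marker RNA, while its Ccl2 lay within the range of the P16lo libraries. This scaling was chosen after the data had been seen and carries no test. The share of all genes without overlap on this scale was not computed.

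**Figure D5:**
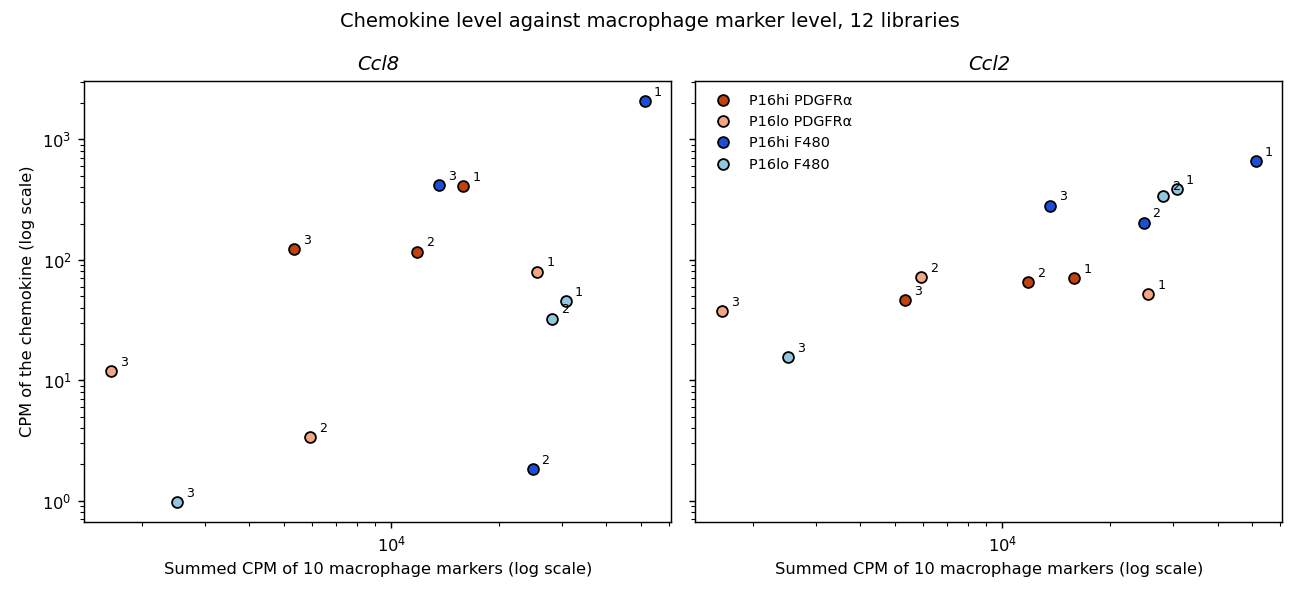
CPM of Ccl8 (left) and Ccl2 (right) against the summed CPM of 10 macrophage markers in the 12 libraries, both axes on a log scale, with library numbers beside the points. In the Ccl8 panel 5 P16hi libraries (117 to 2079 CPM) lie above all P16lo libraries (0.975 to 79.5 CPM) and P16hi F480 library 2 (1.82 CPM) lies among the lowest, while in the Ccl2 panel P16hi and P16lo points are mixed.

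Levels of other marker lists are given beside those of the chemokines, and their part in the chemokine levels was not tested. In PDGFRα-high cells all tested markers of fibroblasts (10, median -1.01), monocytes (6, -2.29), neutrophils (5, -3.39), T and NK cells (8, -2.22) and B cells (4, -1.64) had a log2 difference below 0, and edgeR called none of them. Of 8 resident macrophage markers, 7 had a log2 difference above 0 in PDGFRα-high cells and 8 in F480-high cells, with medians of 1.26 and 1.48 and none called by edgeR. Their sum was 762, 990 and 554 CPM in P16hi and 1067, 200 and 74.3 CPM in P16lo PDGFRα libraries 1 to 3, so the P16lo libraries with least Ccl8 and Ccl12 also held the least of this RNA. In F480 libraries 1 to 3 that sum was 2515, 722 and 1098 CPM in P16hi and 673, 695 and 87.0 CPM in P16lo cells. P16hi library 2, with 1.82 CPM of Ccl8, had the lowest resident and the highest monocyte marker sum of the P16hi F480 libraries. Its resident sum of 722 CPM was still above the 673 and 695 CPM of P16lo F480 libraries 1 and 2. These held more Ccl8, at 45.2 and 32.5 CPM. Endothelial markers summed to 8120, 4687 and 4473 CPM in P16hi and 1665, 483 and 988 CPM in P16lo PDGFRα libraries, and cardiomyocyte markers to 8089, 5139 and 2195 CPM in P16hi and 259, 248 and 297 CPM in P16lo PDGFRα libraries. Fibroblast markers summed to 4300, 1848 and 7050 CPM in P16hi and 703, 2554 and 20476 CPM in P16lo PDGFRα libraries, with the P16lo library richest in them, library 3, holding 11.9 CPM of Ccl8.

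RNA of the receptors of these ligands was found in the same libraries at uneven levels. Of 7 receptor genes listed, 5 were tested in each population and none was called by edgeR. In PDGFRα-high cells 1 of 5 had a log2 difference above 0, with a median of -1.43, and in F480-high cells 5 of 5 did, with a median of 0.44. Ccr2, the monocyte receptor of Ccl2, Ccl7 and Ccl12, had 43.5, 140 and 66.4 CPM in P16hi and 421, 295 and 58.2 CPM in P16lo PDGFRα libraries 1 to 3, overlapping groups with a log2 difference of -1.63 ± 0.753 (SE, adjusted p = 0.802, edgeR). In F480 libraries 1 to 3 Ccr2 had 22.1, 745 and 177 CPM in P16hi and 264, 357 and 86.8 CPM in P16lo cells. P16hi library 1, with the most Ccl8, had the least Ccr2 of the F480 libraries, and P16hi library 2, with little Ccl8, had the most. Other libraries went against that order. The library labelled P16lo F480 3, with the least Ccl8 (0.975 CPM), had 86.8 CPM of Ccr2. P16lo PDGFRα library 1 had the most Ccl8 (79.5 CPM) and the most Ccr2 (421 CPM) of its group. Ccr1 had 19.0, 30.3 and 25.1 CPM in P16hi and 81.4, 203 and 17.9 CPM in P16lo PDGFRα libraries 1 to 3. The groups overlapped through P16lo library 3. Its log2 difference was -2.02 ± 0.776 (SE, unadjusted p = 0.0341, adjusted p = 0.71, edgeR). In that fit 222 of 13262 genes were lower in P16hi cells at an unadjusted p under 0.05. Ccr8, the receptor of mouse Ccl8, had at most 9 reads in P16hi and 24 reads in P16lo libraries, and Ccr3, the eotaxin receptor, reached 8.08 CPM in P16hi F480 library 2 and 3.59 CPM in P16lo F480 library 1. Ackr2, which removes inflammatory CC chemokines from tissue, had 9.34, 4.19 and 51.4 CPM in P16hi and 0.842, 5.7 and 21.7 CPM in P16lo PDGFRα libraries, with overlap.

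Of 14 genes of cytokines and signalling factors known to raise or lower these chemokines, 11 were tested in each population, and edgeR called none. The counts of this list therefore mix activators with inhibitors such as Nfkbia. In PDGFRα-high cells 3 had a log2 difference above 0 and 8 below, with a median of -0.48, where 59.6% of all genes lay below 0 with a median of -0.17. In F480-high cells 2 lay above 0 and 9 below, with a median of -0.23, where 50% of all genes lay below 0 with a median of 0. Il1b, an inflammatory cytokine, had 11.4, 227 and 218 CPM in P16hi and 1027, 875 and 220 CPM in P16lo PDGFRα libraries 1 to 3. P16hi libraries 2 and 3 lay around the level of P16lo library 3 and under P16lo libraries 1 and 2, with P16hi library 1 far lower and a log2 difference of -2.21 ± 1.04 (SE, adjusted p = 0.802, edgeR). Nfkb1, which encodes an NF-kB subunit, was lower without overlap, at 56.6, 61.5 and 65.5 CPM in P16hi and 89.7, 102 and 73.9 CPM in P16lo PDGFRα libraries (-0.53 ± 0.279, SE, adjusted p = 0.827, edgeR; 6.97% of genes were lower without overlap). The interferon-driven factor Irf1 lay the other way in PDGFRα-high cells, at 1.09 ± 0.527 (SE, adjusted p = 0.802, edgeR). The genes of Il4, Il13 and Ifng were left out of both tests for low counts. Ccl1, the further chemokine gene of the cluster on the opposite strand, reached 0.249 CPM in P16hi and 3.37 CPM in P16lo libraries and was likewise not tested.

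Genes with profiles most like each chemokine were sought among 8273 genes by the root mean square difference of log2(CPM + 1) over 12 libraries, each profile centred within its population. Ccl2 and Ccl7 had closely similar profiles, 0.48 apart, which ranked Ccl7 2 for Ccl2 and Ccl2 4 for Ccl7. Nearest to Ccl2 were Rin2 (0.47), Ccl7 and Scamp1 (0.49), and nearest to Ccl7 were Cln8 (0.45), Pdlim4 (0.47) and Lgals3bp (0.47). Ccl12 was nearest to Cbr2 (0.69), Folr2 (0.77), a folate receptor of resident macrophages, and Pf4 (0.78), a CXC chemokine gene. Ccl8 had no close match: Gpnmb (1.13), Cbr2 (1.4) and Gas6 (1.41), a ligand of receptors for apoptotic cell uptake, were nearest, against a spread of 2.98 in Ccl8 itself, and Ccl12 ranked 9 at 1.56. Gpnmb, a membrane glycoprotein gene of lipid-loaded macrophages, had 1085, 76.0 and 46.9 CPM in P16hi and 70.0, 13.1 and 28.1 CPM in P16lo PDGFRα libraries 1 to 3. In F480 libraries 1 to 3 Gpnmb had 2448, 12.1 and 188 CPM in P16hi and 82.5, 84.3 and 6.13 CPM in P16lo cells, low in P16hi library 2 as Ccl8 was. Ccl11, at the lower edge of detection, was nearest to Zbtb8b (0.31), Cfap53 (0.38) and Nt5c3 (0.38), with a spread of its own of 0.71.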

How the data were processed

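Per the labels' protocols, cDNA was fragmented by a transposase and sequenced as DNA nanoballs. The submitters' processing notes name HISAT with GRCm38 and mm10; no counting tool, version or strand setting is given in the sources used here, so reads shared by similar chemokine genes carry uncertainty. The authors' tables, per the file headers, give each library's TPM, FPKM, estimated count and normalised read count; the last, deposited as a scaled signal, was not used. FPKM served to check TPM: in P16hi F480 library 3 the deposited TPM ran from 0.283 to 2.91 times the FPKM (5th and 95th percentile), against a near-constant ratio in the other libraries, so levels are given as CPM. Estimated counts were rounded (all 60 chemokine values were whole). Genes listed in only 1 column block were set at 0 in the other.

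Each comparison was fitted over all genes with edgeR 4.0.16 in R 4.3.3 (filterByExpr, minimum count 10, TMM, robust quasi-likelihood F-test, Benjamini-Hochberg adjustment, threshold 0.05), using the 6 libraries of a population or all 12. SE came from the F statistic. CPM use the TMM scale of all 12 libraries, and exon lengths and coordinates the GRCm38.p6 annotation. Single chemokines had 15 exact permutation tests, two-sided, on the difference of group means of log2(CPM + 1). That difference is not the log2 difference of edgeR. DESeq2 1.42.0 and limma 3.58.1 on TPM, other scalings and filters, a column block covariate and left-out libraries were the alternatives. The edgeR script was tested on simulated data. Named genes are the chemokines, their receptors, cytokines and signalling factors acting on them, Ccl1, Cdkn2a, marker lists and the 3 genes of nearest profile. Members and lists were chosen with earlier results of these data known. No pair of libraries in a group agreed within sampling noise, the chi-square per degree of freedom being 36.5 or more. The value of 36.5 was that of P16lo F480 libraries 1 and 2, whose pairs with library 3 were at 679 and 733. The spread within that group thus rests mostly on library 3, and so do the SD and SE that use it.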

Additional observations from a re-analysis of the deposited data

How the results depend on the processing

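Depth limits Ccl11, Ccr8 and Cdkn2a, which rest on few reads, and 3 libraries a group limit all tests. Genes called by edgeR numbered 0 in all 6 comparisons. For P16hi against P16lo PDGFRα-high cells, 39 were called with library totals only, 23 without a low-count filter, 304 by DESeq2, and 219 and 135 by limma on log2(TPM + 1) and log2(TPM + 0.1); leaving out 1 library gave 0 to 17, with 17 without P16hi library 3. In F480-high cells DESeq2 called 3, and leaving out 1 library gave 0 to 0. For the difference between populations DESeq2 called 8. Over both populations DESeq2 called 344 and limma on log2(TPM + 1) 52. For PDGFRα-high against F480-high P16hi cells the count was 1131 by DESeq2, 828 and 546 by limma with pseudocounts of 1 and 0.1, 7 with a replicate block, 1264 with both number 3 F480 libraries left out (chosen after seeing the data), and 0 to 705 leaving out 1 library, with 705 without P16hi F480 library 3. For P16lo cells it was 1397 by DESeq2, 1 and 9 by limma, 4 with a replicate block, 279 with both number 3 F480 libraries left out, and 0 to 317 leaving out 1 library, with 317 without P16hi F480 library 3. The causes were not tested.

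Of 313 chemokine values recomputed in settings other than leaving out 1 library, 294 kept direction and side of the threshold. By DESeq2, 2 values (Ccl8 and Ccl12 in PDGFRα-high cells) kept direction but had no p. Among all settings 7 values passed the threshold and 10 turned. The settings include leaving out both number 3 F480 libraries, a choice made after seeing the data. The turned ones were the Ccl7 difference between populations (-0.08, against 0.22 with library totals and 0.09 with both number 3 F480 libraries left out), that of Ccl8 (-2.22, against 1.22 and 1.24 by limma with pseudocounts of 1 and 0.1), Ccl8 in PDGFRα-high against F480-high P16hi cells (-1.95, against 0.97 and 1.02 by limma), and Ccl8 in P16lo cells (0.27, against -0.25 and -0.22 by limma, -0.59 with a replicate block and -0.48 with both number 3 F480 libraries left out).

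Leaving out 1 library gave -0.04 to 0.44 for Ccl2 in PDGFRα-high cells, -0.79 to 1.33 for Ccl7 in F480-high cells and -0.07 to 1.0 for Ccl7 over both. The difference between populations ran from -0.93 to 0.2 for Ccl2, -0.58 to 1.57 for Ccl7 and -0.51 to 2.42 for Ccl12. PDGFRα-high against F480-high P16hi cells gave -0.94 to 0.32 for Ccl12 and -2.85 to 0.04 for Ccl8, and P16lo cells gave -2.81 to 0.11 for Ccl12 and -1.78 to 0.92 for Ccl8. The Ccl8 difference of P16hi over P16lo kept its direction throughout, at 1.91 to 4.83 in PDGFRα-high, 3.11 to 5.68 in F480-high cells and 2.89 to 4.91 over both. Same-numbered P16hi and P16lo libraries correlated at 0.09, -0.01 and 0.3 in PDGFRα-high and at 0.46, -0.3 and 0.14 in F480-high cells. Unlike-numbered ones ran from -0.32 to 0.22 and from -0.52 to 0.52. These values do not settle whether the numbers pair the libraries. With the replicate block Ccl8 was at 3.58 (adjusted p = 0.276, edgeR) in PDGFRα-high and 5.11 (adjusted p = 0.995, edgeR) in F480-high cells.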
